A study of Mus musculus with 6 samples.

Results

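The VEGF family was followed here in the mRNA of native cardiac fibroblasts (CFs) from WT and CharmeKO mice. Its 10 genes, 5 ligands (Vegfa, Vegfb, Vegfc, Vegfd and Pgf), 3 tyrosine kinase receptors (Flt1, Kdr and Flt4) and 2 neuropilin coreceptors (Nrp1 and Nrp2), were picked by symbol from the 49548 genes of the count table. All 10 passed the filter of 10 or more counts in 2 or more libraries, as did 15789 genes in all, which were tested. Cells came from the hearts of 5-week-old C57BL/6J mice, 3 WT and 3 CharmeKO. In CharmeKO a PolyA signal inserted in the locus of Charme, a long non-coding RNA of heart muscle, is carried by the whole animal, so the cells sequenced are not the only ones with the insertion. The study describes the cells as freshly dissociated and depleted of hematopoietic lineages, and as tested by flow cytometry for the absence of CD45 and of CD309, the protein that Kdr encodes. The labels also list a growth medium. No label says that mice of a pair were littermates or gives their sex.

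VEGF proteins are secreted dimers that drive the growth, survival and permeability of blood and lymphatic vessels. VEGF-A, the main angiogenic ligand, binds the receptors encoded by Flt1 and Kdr. VEGF-B and placental growth factor, the product of Pgf, bind the Flt1 product, whereas VEGF-C and VEGF-D act through the product of Flt4, chiefly on lymphatic endothelium. Neuropilins bind VEGF together with these receptors and also serve as receptors of class 3 semaphorins. In the heart, cardiomyocytes and stromal cells make the ligands, and endothelial cells carry most of the receptor.

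The libraries held between 9595701 and 42101393 counts on genes, with WT replicate 3 the shallowest. Charme had 26, 15 and 4 counts in WT replicates 1, 2 and 3 and 7, 0 and 0 counts in CharmeKO replicates 1, 2 and 3. The 11 fibroblast markers summed to between 40747 and 43414 normalised CPM (CPM, counts scaled to the library total and by the TMM method) in WT and between 33608 and 42057 in CharmeKO. Endothelial markers were also abundant, with 20 of 20 genes tested and sums of 12607 to 15892 CPM in WT and at 12575 to 15816 in CharmeKO. Xist was at 376 to 473 CPM in 3 libraries, WT replicate 1 and CharmeKO replicates 1 and 2, and at 0 to 2.55 CPM in the other 3, in which Ddx3y of the Y chromosome was at 48.6 to 57.1 CPM. CharmeKO replicate 1 held both Xist and, at a low level, Ddx3y (2.06 CPM). WT replicate 2 held Ddx3y (57.1 CPM) and, at a low level, Xist (2.55 CPM). It cannot be said that the RNA of either library came from 1 animal alone, and the source of these counts was not tested. The Xist-high libraries were therefore 1 of 3 in WT and 2 of 3 in CharmeKO, and for each VEGF gene the difference within this split is given.

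No VEGF gene passed the threshold of an adjusted p of 0.05 in CharmeKO against WT. Vegfa was lower and Vegfb and Kdr were higher in CharmeKO without overlap between the 3 libraries of each genotype, by 1.37-, 1.15- and 1.30-fold of the group means. The adjusted p-values of the 10 genes ran from 0.183 for Vegfa to 0.933 for Vegfd (edgeR quasi-likelihood test), where 131 of all tested genes, 0.83%, were called. DESeq2, which called 394 genes or 2.5%, also called 0 of the 10, with Vegfa nearest at an adjusted p of 0.0545. The unadjusted p was under 0.05 for Vegfa, Vegfc and Kdr, 3 of 10 genes against 12.8% of all genes tested. Groups that did not overlap were found in the same share of the 10 genes, with 18.2% among all genes tested. Of the 10 log2 fold changes, 5 lay above and 5 below 0, and their median was 0.083, beside 0.0097 over all genes tested.

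**Figure D1:**
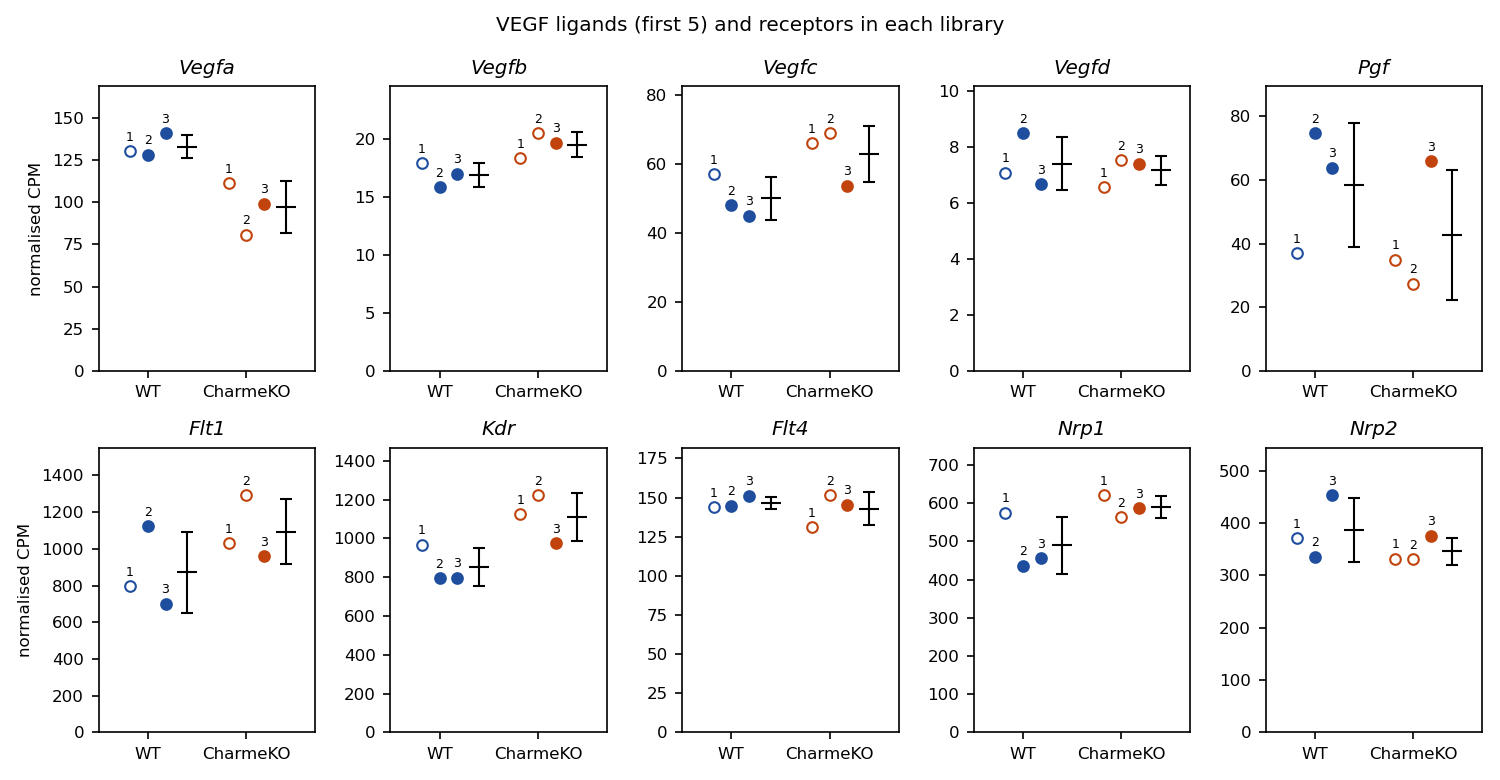
Each panel plots the normalised CPM of one VEGF gene (vertical axis, from 0) in the 3 WT (blue) and 3 CharmeKO (orange) libraries, numbered by replicate, with open points for the 3 libraries with high Xist and the mean ± SD of each group drawn beside the points. Vegfa sits lower and Vegfb and Kdr sit higher in all CharmeKO libraries, and the points of Pgf part by the open and filled symbols rather than by genotype.

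Among the ligands, Vegfa had the lowest p and the highest mean level per length. It was at 130.4, 128 and 141 CPM in WT replicates 1, 2 and 3 and at 111, 80.9 and 99.2 CPM in CharmeKO replicates 1, 2 and 3. Every WT library lay above every CharmeKO library, which in this direction held for 8.59% of all genes tested. The log2 fold change was -0.45 (SE 0.13, 95% interval -0.74 to -0.16), with an adjusted p of 0.183. Within the Xist-high libraries the difference was -0.46 and within the other libraries -0.44 on the log2 scale. Leaving out 1 library at a time gave sizes between -0.56 and -0.33. With all genes of at least 1 count in any library kept in the edgeR fit, 699 genes were called, and Vegfa was one of them at an adjusted p of 0.0367. Fewer cells of a type and less RNA per cell cannot be told apart in such bulk libraries.

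Vegfa and Kdr, the ligand and receptor with the highest mean levels per length, are shown here by the 250 bases before their first annotated start in RefSeq (build GRCm38.p6, given 5′ to 3′ on the gene's strand), since Vegfa and Kdr had the lowest p-values of the family with opposite signs. Capitals mark matches, on either strand, to any of 7 short motifs, the hypoxia response cores ACGTG and GCGTG, the Sp1 box GGGCGG, the ETS core CCGGAA, the AP-1 site TGACTCA, the TATA box TATAAA and the GATA motif AGATAA, and no matches share bases in these windows. The window of Vegfa is chr17:46032378-46032627 on the minus strand, and that of Kdr is chr5:75978456-75978705 on the minus strand.
Vegfa: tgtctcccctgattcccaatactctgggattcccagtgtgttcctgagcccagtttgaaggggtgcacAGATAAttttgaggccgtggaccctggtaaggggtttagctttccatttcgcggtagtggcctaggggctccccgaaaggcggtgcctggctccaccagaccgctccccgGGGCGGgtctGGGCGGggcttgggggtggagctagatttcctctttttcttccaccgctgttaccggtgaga
Kdr: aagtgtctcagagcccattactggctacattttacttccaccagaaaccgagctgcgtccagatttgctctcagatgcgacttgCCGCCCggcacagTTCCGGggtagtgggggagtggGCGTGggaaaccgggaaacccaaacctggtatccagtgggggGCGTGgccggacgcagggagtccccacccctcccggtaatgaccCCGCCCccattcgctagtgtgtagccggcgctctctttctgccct
The Vegfa window held 2 GGGCGG and 1 AGATAA matches and the Kdr window 2 GCGTG, 2 GGGCGG and 1 CCGGAA matches. Among 32851 such windows of mouse genes, 16.6% held ACGTG, 28.2% GCGTG, 32.7% GGGCGG, 12% CCGGAA, 4.46% TGACTCA, 12.4% TATAAA and 9.99% AGATAA. All 10 VEGF genes matched the RefSeq table, with 12 starts in all, since Vegfa and Pgf have 2 each. Of the 12 windows, 10 held GGGCGG, 7 held GCGTG and 1, the second start of Vegfa, held ACGTG. The windows of the second starts of Vegfa and Pgf lie downstream of the first starts, so they are not sequence upstream of the gene. The ACGTG match and 1 of the GCGTG matches were in such a window. Elements further than 250 bases from a start were not searched. The GC content was between 42.4% for Vegfd and 76.4% for Vegfb, with a median of 52.4% over all windows. Every VEGF window but that of Vegfd lay above this median, at 59.2% or more. GGGCGG and GCGTG are themselves rich in G and C, and their shares were not compared with windows of like GC content. A match is a run of letters and not a measured binding site, and no chromatin data were measured.

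Vegfb, which encodes the ligand tied to fatty acid handling and survival of heart vessels, was at 17.9, 15.8 and 17.0 CPM in WT and at 18.3, 20.4 and 19.7 CPM in CharmeKO, in the order of the replicates. The lowest CharmeKO library exceeded the highest WT library by less than the spread within either group. The fit gave a log2 fold change of 0.20 (SE 0.13) and an adjusted p of 0.561, and non-overlap in this direction held for 9.58% of all genes. Within the Xist-high libraries the difference was 0.12 and within the others 0.26.

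Vegfc, the main lymphatic growth factor, was at 57.0, 48.0 and 44.9 CPM in WT and at 66.0, 68.7 and 53.6 CPM in CharmeKO. The groups overlapped, because WT replicate 1 exceeded CharmeKO replicate 3. CharmeKO was higher by 0.32 on the log2 scale (SE 0.13), with an unadjusted p of 0.0332 and an adjusted p of 0.341. Vegfc was at 57.0 to 68.7 CPM in the 3 Xist-high libraries and at 44.9 to 53.6 CPM in the other 3, so that it was separated by this split and not by genotype. CharmeKO exceeded WT by 0.24 on the log2 scale within the first set and by 0.21 within the second, and by 0.22 in a fit with a term for the split.

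Vegfd, the related ligand on the X chromosome, was the lowest of the family, at 7.07, 8.48 and 6.67 CPM in WT and at 6.56, 7.52 and 7.40 CPM in CharmeKO. Its groups overlapped widely. Its log2 fold change was -0.055 (SE 0.19, 95% interval -0.48 to 0.37) with an adjusted p of 0.933, and the sign turned when either WT replicate 2 (0.053) or CharmeKO replicate 1 (0.0082) was left out. Within the Xist-high libraries it was -0.0095 and within the others -0.023.

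Pgf, which encodes placental growth factor, varied most between libraries. It was at 36.9, 74.6 and 63.8 CPM in WT and at 35.0, 27.4 and 65.9 CPM in CharmeKO. One library of WT was low and one of CharmeKO was high, so the groups overlapped over most of their range. For the genotypes, the log2 fold change was -0.44 with an SE of 0.31, the widest of the family, a 95% interval of -1.12 to 0.23 and an adjusted p of 0.593. The 3 Xist-high libraries held 27.4 to 36.9 CPM and the other 3 held 63.8 to 74.6 CPM, a 2.06-fold difference of the means. Of all genes tested, 13.7% were likewise separated by this split of the libraries, and Pgf and Vegfc were the only VEGF genes among them. With a term for the split the log2 fold change of Pgf was -0.16, and the difference was -0.25 within the first set and -0.066 within the second. Leaving out single libraries moved it between -0.90 and -0.20, the first without CharmeKO replicate 3. In the edgeR fit without the count filter, Pgf had an adjusted p of 0.0479 at the same size, and that fit gave it an SE of 0.14.

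Kdr, which encodes VEGFR2, the main signalling receptor of blood vessels, was at 967, 795 and 798 CPM in WT and at 1126, 1224 and 977 CPM in CharmeKO. All CharmeKO libraries were above all WT libraries, but CharmeKO replicate 3 was only just above WT replicate 1. This was a log2 fold change of 0.38 (SE 0.14, 95% interval 0.066 to 0.69), with an unadjusted p of 0.0219 and an adjusted p of 0.298. It was 0.28 within the Xist-high libraries and 0.29 within the other libraries. Each library held between 7424 and 41169 counts of Kdr, in cells that the study tested for the absence of its protein.

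Flt1, which encodes VEGFR1 and a soluble form that traps ligand, spread more widely in WT. It was at 795, 1122 and 701 CPM in WT and at 1029.6, 1293 and 959 CPM in CharmeKO. WT replicate 2 lay within the CharmeKO range and the other WT libraries lay below it. CharmeKO minus WT was 0.33 on the log2 scale (SE 0.19), with an adjusted p of 0.502. It was 0.55 without WT replicate 2, 0.19 without WT replicate 3 and 0.19 without CharmeKO replicate 2. Within the Xist-high libraries it was 0.54 and within the others 0.11. The counts are per gene, so the membrane and soluble forms of Flt1 and the splice forms of Vegfa were not separated.

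Flt4, which encodes VEGFR3, the receptor of lymphatic vessels, was the steadiest of the 10 genes. It was at 144, 145 and 151 CPM in WT and at 131, 152 and 145 CPM in CharmeKO, with a ratio of 1.16 between the highest and the lowest library. Its log2 fold change was -0.039 (SE 0.11, 95% interval -0.28 to 0.21) with an adjusted p of 0.918, and turned to 0.022 without CharmeKO replicate 1. Within the Xist-high libraries it was -0.028 and within the others -0.026.

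Of the coreceptors, Nrp1, the neuropilin that binds VEGF-A with VEGFR2, was at 575, 437 and 456 CPM in WT and at 621, 563.5 and 587 CPM in CharmeKO. WT replicate 1 was above CharmeKO replicate 2, and the other WT libraries were below all of CharmeKO. Its log2 fold change was 0.27 (SE 0.14) and the adjusted p 0.445. The difference was 0.041 within the Xist-high libraries and 0.40 within the others, and without WT replicate 1 the fit gave 0.41. Nrp2, the neuropilin of lymphatic and venous endothelium, was at 371, 335 and 453 CPM in WT and at 332, 331 and 375 CPM in CharmeKO. The groups overlapped, and WT replicate 3 was the highest library. For Nrp2 the log2 fold change was -0.16 (SE 0.14) with an adjusted p of 0.693, and was -0.030 without WT replicate 3 and -0.25 without WT replicate 2. Within the Xist-high libraries it was -0.16 and within the others -0.055.

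**Figure D2:**
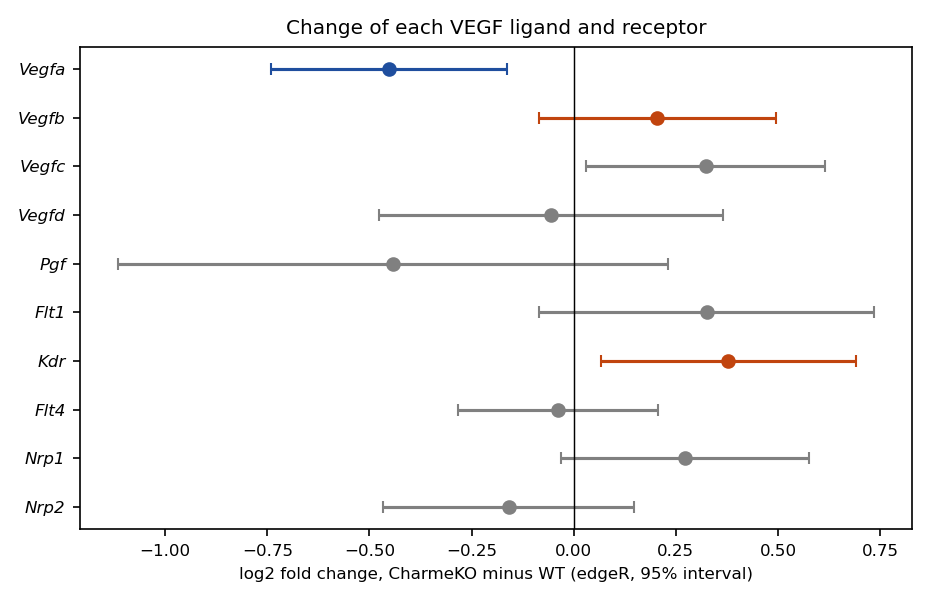
Points are the log2 fold changes of the 10 VEGF genes, CharmeKO minus WT (horizontal axis), with 95% intervals of the edgeR fit. Blue marks the gene whose CharmeKO libraries all lie below WT, orange the genes whose CharmeKO libraries all lie above, and grey the rest. The intervals of Vegfa, Vegfc and Kdr leave out 0 before adjustment, and the widest interval is that of Pgf.

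Per length, the receptors of blood vessels were at the top of the family and Vegfd at its foot. Over the 6 libraries, Kdr was at 109 ± 19.1 CPM per kb of exon (SD, n = 6), Flt1 at 72.8 ± 16.0 and Nrp1 at 55.2 ± 7.71. Nrp2 followed at 30.9 ± 3.98, Vegfa at 26.9 ± 5.22, Vegfc at 23.0 ± 3.89, Flt4 at 17.6 ± 0.901, Pgf at 17.4 ± 6.80, Vegfb at 11.3 ± 1.06 and Vegfd at 3.02 ± 0.290. In this order the ranges over libraries were apart only between Nrp1 and Nrp2 and between Vegfb and Vegfd, and all other neighbours overlapped. The lengths are those of all annotated exons together. With the longest transcript as the length, Nrp1 came before Flt1, at 148 and 143 CPM per kb, and Vegfc moved behind Pgf and Flt4.

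**Figure D3:**
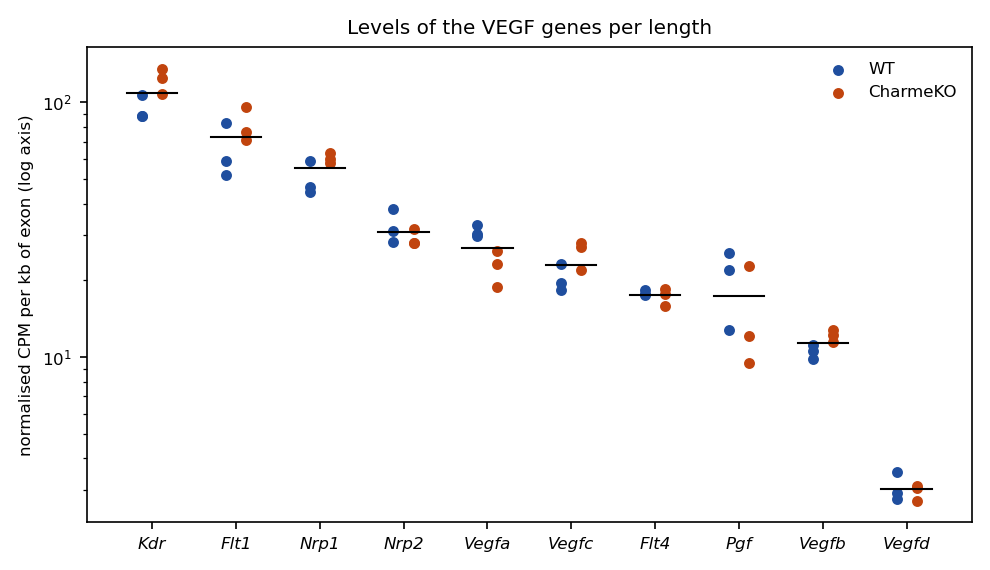
The level of each VEGF gene is plotted as normalised CPM per kb of exon (vertical log axis) in the 3 WT (blue) and 3 CharmeKO (orange) libraries, ordered by the mean over 6 libraries (bar). Kdr, Flt1 and Nrp1 lie at 44.6 CPM per kb or more in every library, and Vegfd lies at 3.52 or less.

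Ratios between members within a library do not depend on the scaling between libraries. Of 10 such ratios compared between the genotypes, none had an unadjusted p below 0.1, the smallest that an exact two-sided permutation test of 3 against 3 libraries allows, and the adjusted p-values were between 0.333 and 1. The log2 ratio of Vegfa to Vegfb counts was 2.87, 3.02 and 3.05 in WT and 2.60, 1.98 and 2.34 in CharmeKO, lower by 0.67 without overlap (exact permutation test, p = 0.1). The log2 ratio of Nrp2 to Nrp1 counts was -0.63, -0.38 and -0.0075 in WT and -0.91, -0.77 and -0.65 in CharmeKO, lower by 0.43 without overlap, again with p = 0.1 in the exact permutation test. Neither difference can pass the threshold in a design of this size.

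The receptors were also set against the sum of the 20 endothelial markers, none of which is a VEGF gene. The log2 ratio of Kdr to this sum was -3.73, -4.32 and -3.98 in WT and -3.48, -3.69 and -3.90 in CharmeKO, a difference of 0.32 with overlapping groups and p = 0.2 (exact permutation test). The ratio of Flt1 to the same sum differed by 0.29 (exact permutation test, p = 0.2) and that of Flt4 by -0.099 (exact permutation test, p = 0.5). Flt4 to Kdr was lower by 0.42 and Vegfc to Vegfd higher by 0.37 on the log2 scale, each with overlapping groups and p = 0.2 in the exact permutation test. The ratios of Flt1 to Kdr, Nrp1 to Kdr and Pgf to Vegfa differed by -0.035, -0.096 and -0.026, and each changed sign when single libraries were left out.

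**Figure D4:**
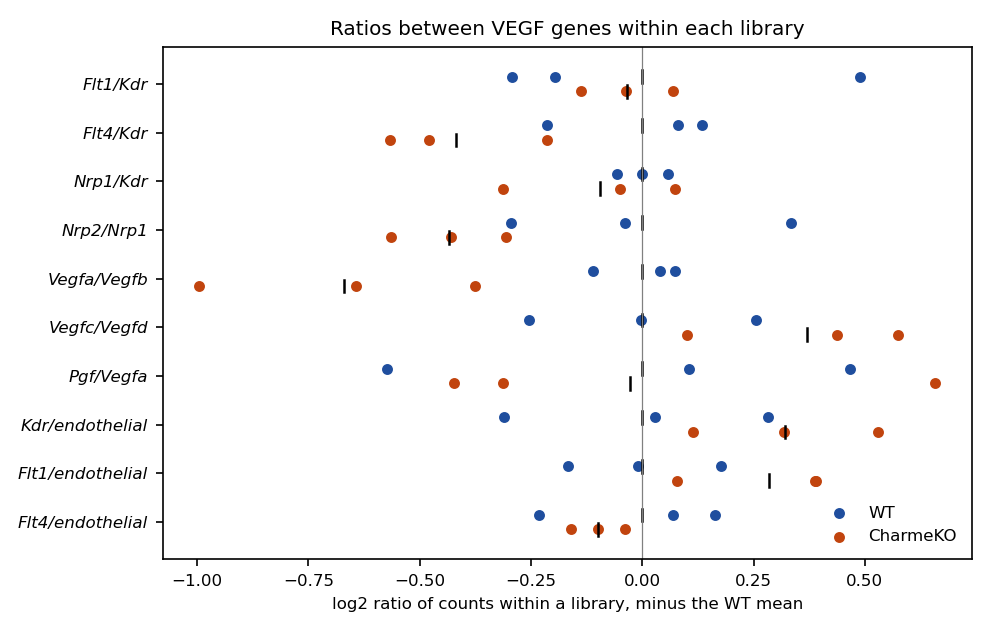
Points are log2 ratios of raw counts within each library (horizontal axis), drawn as the difference from the WT mean of that ratio, for 3 WT (blue) and 3 CharmeKO (orange) libraries, with group means as bars. The word endothelial stands for the summed counts of the 20 markers. The CharmeKO points lie below all WT points for Vegfa/Vegfb and Nrp2/Nrp1 and mix with WT in the other 8 ratios.

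The genes named from here on are no VEGF genes but stand around them in the pathway or mark cell types, and those called by DESeq2 and not by edgeR were named after their values were seen. As a background for the counts below, edgeR called 0.83% of all genes tested and DESeq2 2.5%. An unadjusted p under 0.05 in edgeR was found for 12.8%. Of 10 genes of hypoxia sensing, 4 were higher and 6 lower in CharmeKO, with a median log2 fold change of -0.080. None passed the threshold in edgeR or DESeq2, and 3 had an unadjusted p under 0.05 in edgeR. Epas1, which encodes the HIF-2α factor of endothelium, had the highest CPM of them at 1627 ± 329 CPM in WT and at 1749 ± 165 CPM in CharmeKO (SD, n = 3 each), with a log2 fold change of 0.10 (adjusted p 0.841) that ran from 0.023 without WT replicate 3 to 0.28 without WT replicate 2. Egln1, the oxygen sensing prolyl hydroxylase, was at 172 ± 28.8 and 189 ± 11.5 CPM, with 0.14 (adjusted p 0.737), which was 0.034 without WT replicate 1 and 0.27 without WT replicate 2.

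Genes that release, cleave or bind VEGF in the matrix lay mostly below WT. Of 15 such genes, 12 were lower and 3 higher in CharmeKO, with a median log2 fold change of -0.32 beside 0.0097 over all genes. In edgeR 0 passed the threshold and 6 had an unadjusted p under 0.05, beside 12.8% of all genes tested. DESeq2, which called 2.5% of all genes, called 3 of the list, all lower. These were the metalloprotease genes Mmp2 (adjusted p 0.00227) and Mmp14 (adjusted p 0.00367) and Hspg2. Hspg2, which encodes the basement membrane proteoglycan perlecan that holds VEGF, was at 13157, 14486 and 17495 CPM in WT and at 7790.3, 8926 and 12856 CPM in CharmeKO. The groups did not overlap, and the log2 fold change was -0.61 (SE 0.20) with an adjusted p of 0.242 in edgeR and 0.0293 in DESeq2. Sparc, a matrix protein that binds VEGF-A, was at 5411 ± 693 and 4346 ± 1086 CPM (SD, n = 3 each), with a log2 fold change of -0.32 (adjusted p 0.516), which was -0.54 without CharmeKO replicate 3 and -0.19 without CharmeKO replicate 1.

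Semaphorins and plexins, which share the neuropilins with VEGF, were listed with Gipc1, which is neither. The list of 13 genes had 9 lower and 4 higher, Gipc1 among the higher, with a median of -0.24. In edgeR 0 passed the threshold and 3 had an unadjusted p under 0.05, and DESeq2 called Sema3b lower (log2 fold change -0.63, adjusted p 0.0298). Plxnd1, the plexin of endothelial cells, was at 1219.6 ± 169.9 CPM in WT and at 1002 ± 150.5 CPM in CharmeKO (SD, n = 3 each), with a log2 fold change of -0.28 (adjusted p 0.482) that was -0.17 without WT replicate 3 or CharmeKO replicate 2. Sema3g was at 311 ± 82.4 and 323 ± 28.1 CPM, with 0.057 (adjusted p 0.922).

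Downstream of the receptors, 48 of 49 signalling genes were tested, 26 above and 22 below 0, with a median of 0.011. Among the 48, 7 had an unadjusted p under 0.05 in edgeR, 2 higher and 5 lower, beside 12.8% of all genes tested. Mapkapk3, a kinase that p38 activates, was the gene that passed in edgeR, in the lower direction, where 0.412% of all genes were called. It was at 11.3, 7.95 and 11.9 CPM in WT and at 3.39, 1.47 and 3.88 CPM in CharmeKO, with no overlap. Mapkapk3 had a log2 fold change of -1.82 (SE 0.33) with an adjusted p of 0.024, which was 0.109 without WT replicate 1, 0.0944 without WT replicate 3 and 0.114 without CharmeKO replicate 1. DESeq2 called Mapkapk3 and, also lower, Nfatc2, a calcium-regulated factor (log2 fold change -0.84, adjusted p 0.0484). Ptprb, which encodes the phosphatase VE-PTP of endothelium, was at 1062 ± 141 and 1271 ± 199 CPM, with a log2 fold change of 0.26 (adjusted p 0.527), which was 0.14 without CharmeKO replicate 2. Hspb1, the heat shock protein phosphorylated downstream of VEGFR2, was at 393 ± 29.3 and 526 ± 153 CPM, with 0.42 (adjusted p 0.377), which was 0.16 without CharmeKO replicate 3.

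Known transcriptional targets of VEGF signalling were 9 lower and 7 higher of 16, with a median of -0.066. Of these genes 0 were called by edgeR or DESeq2. In edgeR 9 had an unadjusted p under 0.05, 4 higher and 5 lower, beside 12.8% of all genes tested. The 2 genes of highest CPM, given next, were both lower. Nr4a1, an early gene of VEGF-stimulated endothelium, was at 903 ± 115 and 720.4 ± 126 CPM, with a log2 fold change of -0.33 (adjusted p 0.426), which was -0.19 without CharmeKO replicate 2. Nid2, a basement membrane gene, was at 343 ± 39.4 and 258 ± 34.5 CPM without overlap, with -0.41 (adjusted p 0.257). The angiopoietins and TIE receptors, the other vascular ligand and receptor pair, were listed with Ptprb, which the signalling and endothelial lists also hold. Tie1 and Tek are in the endothelial list too, and Angpt2 is in the list of VEGF targets, so these lists are not separate results. The 6 genes of this list were 5 higher and 1 lower with Ptprb among the higher, and their median was 0.38. From this list 0 were called by edgeR or DESeq2, and 2 had an unadjusted p under 0.05 in edgeR. The 2 with the highest CPM were Ptprb and Tie1, the second at 1128 ± 257 and 1006 ± 147 CPM with a log2 fold change of -0.17 (adjusted p 0.761).

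Of 19 other secreted regulators of vessels, 10 were higher and 9 lower with a median of 0.10. Among them 6 had an unadjusted p under 0.05 in edgeR, 5 higher and 1 lower, beside 12.8% of all genes tested. Cxcl10, an interferon-induced chemokine that restrains vessel growth, was the gene called by edgeR. It was called as lower, as were 0.412% of all genes tested. It was at 88.4, 88.9 and 90.5 CPM in WT and at 21.1, 20.4 and 25.0 CPM in CharmeKO. It fell by 2.01 on the log2 scale (SE 0.12, adjusted p 3.01e-06), and the fit gave -2.10 to -1.95 when single libraries were left out. DESeq2 called Cxcl10 and 2 higher genes, the growth factor genes Fgf10 (log2 fold change 2.15, adjusted p 0.00457) and Ptn (0.86, adjusted p 0.0495). Timp3, an inhibitor of VEGFR2 and of metalloproteases, was at 1968 ± 452 and 1752 ± 86.8 CPM, with a log2 fold change of -0.17 (adjusted p 0.739). Cxcl12, the chemokine of stromal cells, was at 921 ± 115 and 1181 ± 68.3 CPM without overlap, with 0.36 (adjusted p 0.302).

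Markers of the cell types that carry or make VEGF were measured beside the family. Of 20 endothelial markers 9 were higher and 11 lower, with a median of -0.067 that was 0.10 without WT replicate 2. In edgeR 0 were called and 5 had an unadjusted p under 0.05, and DESeq2 called Vwf, the von Willebrand factor gene, lower (log2 fold change -0.50, adjusted p 0.00906). Cdh5, the cadherin of endothelial junctions, was at 2059 ± 223 and 2008 ± 235 CPM (log2 fold change -0.036, adjusted p 0.945), and Fabp4, the fatty acid binding protein of capillaries, at 1977.5 ± 189.6 and 2669.8 ± 485 CPM without overlap (0.43, adjusted p 0.291). The defining markers of endothelium were thus present in every library, although the cells are labelled fibroblasts, and their part in the levels of Kdr and Flt1 was not tested. Of 7 lymphatic markers 4 were higher and 3 lower, with a median of 0.025 and sums of 148 to 198 CPM in WT and at 175 to 198 CPM in CharmeKO. In edgeR 0 of them were called and 4 had an unadjusted p under 0.05, 2 higher and 2 lower. DESeq2 called Pdpn, which fibroblasts also express, lower (log2 fold change -0.55, adjusted p 0.00869). Ccl21a, the chemokine of lymphatic vessels, was at 39.6 ± 13.9 and 50.3 ± 1.40 CPM, with 0.36 (adjusted p 0.469) that ran from 0.17 without WT replicate 2 to 0.66 without WT replicate 3, and Mmrn1 at 30.6 ± 7.47 and 42.3 ± 6.51 CPM, with 0.48 (adjusted p 0.292).

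Cardiomyocytes make much of the VEGF-A of the heart. The log2 fold changes of all 10 of their markers were above 0, with summed levels of 389 to 498 CPM in WT and at 575 to 885 CPM in CharmeKO and a median of 0.77. Tnni3 (log2 fold change 0.95, adjusted p 0.020), Myh6 (0.85, 0.0292) and Mb (0.90, 0.0339) rose past the threshold in edgeR, as did 0.418% of all genes, and the other 7 did not. DESeq2, which called 2.5% of all genes, called these 3 and Tnnt2, Myl2 and Pln, also higher, with adjusted p-values of 0.0101, 0.0213 and 0.0476. Each of the 3 edgeR calls was lost when WT replicate 3, CharmeKO replicate 1 or CharmeKO replicate 2 was left out. Those of Myh6 and Mb were also lost without WT replicate 1. The adjusted p-values in these edgeR fits were between 0.0752 and 0.198. The DESeq2 calls were not tested with libraries left out. None of the 10 markers was at 0 in all libraries. The part of these cells in the values of the VEGF genes was not tested.

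Of 11 fibroblast markers 4 were higher and 7 lower with a median of -0.049, of 10 mural markers 5 were higher and 5 lower with a median of -0.013. In edgeR 0 of either list were called, while 5 fibroblast and 2 mural markers had an unadjusted p under 0.05, beside 12.8% of all genes tested. DESeq2 called Col1a1 (log2 fold change -0.78, adjusted p 0.0102), Mfap5 (-0.64, adjusted p 0.0150) and, of the mural list, Cspg4 (-0.57, adjusted p 0.0158), all lower. Gsn was at 20816 ± 4916 and 21211 ± 1149 CPM (log2 fold change 0.027, adjusted p 0.969) and Col3a1 at 7458 ± 1969 and 4888 ± 1705 CPM (-0.61, adjusted p 0.347). Among mural genes, Rgs5 was at 916 ± 179.7 and 976 ± 78.5 CPM (0.092, adjusted p 0.856) and Notch3 at 485 ± 27.4 and 377 ± 56.3 CPM without overlap (-0.36, adjusted p 0.306).

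The leukocyte list was low, at 29.4 to 55.0 CPM in WT and at 39.6 to 52.0 CPM in CharmeKO over 10 markers, 9 of them tested, with a median of 0.013, 0 called by edgeR or DESeq2 and 0 with an unadjusted p under 0.05 in edgeR. Its genes of highest CPM were Cd79a, at 18.5 ± 6.48 and 18.6 ± 2.12 CPM (log2 fold change 0.013, adjusted p 0.988), and Ptprc, which encodes CD45, at 8.25 ± 3.17 and 9.78 ± 3.46 CPM (0.25, adjusted p 0.805). Of 5 erythroid genes all were below 0, with a median of -0.19, 0 called by edgeR or DESeq2 and 1 with an unadjusted p under 0.05 in edgeR. Hbb-bs was at 15972 ± 2226 and 14546 ± 2809.7 CPM (-0.13, adjusted p 0.809) and Hba-a1 at 9430 ± 2039.9 and 6873 ± 319 CPM without overlap (-0.46, adjusted p 0.293).

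Genes that respond to tissue dissociation were 6 higher and 9 lower of 15, with a median of -0.019. The heat shock genes Hspa1a (log2 fold change 1.30, adjusted p 0.0116) and Hspa1b (1.59, adjusted p 0.0176), near-identical copies whose reads counting could split, rose past the threshold in edgeR, as did 0.418% of all genes. DESeq2 called both and, in the lower direction, Fosl1 (log2 fold change -1.38, adjusted p 0.00870). Both edgeR calls were lost without WT replicate 3 or CharmeKO replicate 2, and that of Hspa1b also without CharmeKO replicates 1 or 3, with adjusted p-values of 0.0545 to 0.0922. Egr1 was at 8622 ± 2350.4 and 8315 ± 724 CPM (-0.052, adjusted p 0.937) and Junb at 5292 ± 1349 and 5222 ± 692 CPM (-0.019, adjusted p 0.978). The part of this response in the VEGF values was not tested.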

How the data were processed

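mRNA of native CFs from 3 WT and 3 CharmeKO mice was poly(A)-selected and sequenced with a directional kit. The authors aligned Q30-filtered Illumina reads to a mouse assembly (GRCm39 among the builds in the submitters' notes) with STAR, quantified genes of an Ensembl annotation to which Charme was added, and deposited raw counts per gene, with no normalization and no filter. Versions of STAR are not given in the sources used here.

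From these counts, genes reaching 10 counts in 2 or more libraries were normalised by TMM and tested with edgeR 4.0.16 (quasi-likelihood, group as the only term, R 4.3.3), with Benjamini-Hochberg adjustment over 15789 genes and a threshold of 0.05. DESeq2 1.42.0 was an alternative. SEs were derived from the F statistics. The scripts were tested on simulated data. Totals per library set the precision: 3 counts, the limit that a count of 0 allows, are 0.0705 to 0.323 normalised CPM, and cover counting error only. Replicates are separate hearts as far as the sources say, so p-values measure the spread between these samples. Exon lengths came from GENCODE release M21 on GRCm38, another build than that of the counts, so no gene coordinates are given, and promoter windows from RefSeq on GRCm38.p6. Ratios were compared by exact permutation tests and adjusted over 10 ratios.

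The VEGF genes and the lists were chosen with earlier results of these data known. Genes named are the 10 VEGF genes, the called genes and the 2 most abundant genes of each list, and the 3 genes most like each VEGF gene, and list genes that DESeq2 alone called, added after their values were seen. Gipc1, Tek and Angpt2 are named only to describe what the lists hold. Alternatives were other normalizations and filters, a replicate block, a term for the Xist split, hemoglobin genes left out, each library left out, a 5-gene endothelial list and transcript length. Figures were drawn with matplotlib 3.10.9.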

Additional observations from a re-analysis of the deposited data

How the results depend on the processing

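The number of VEGF genes past the threshold stayed at 0 under every alternative run but the edgeR fit without a count filter, in which it was 2 (Vegfa and Pgf), and the cause was not tested. Over all genes, 394 were called by DESeq2, 699 without a filter, 302 with the replicate block and 61 to 349 with 1 library left out, the highest without WT replicate 2 (131 as reported). Same-numbered WT and CharmeKO libraries deviated together with correlations of 0.216, 0.0535 and 0.161. Each library correlated best with that of its own number, a hint from the data. The serial numbers in the labels alternate between WT and CharmeKO in the order of the replicates. No label states a pairing, so the replicate numbers were not taken as one. The libraries numbered 1 were both Xist-high and those numbered 3 both Xist-low, while those numbered 2 differed. Number and Xist split are thus not separate here, and WT replicate 2 with CharmeKO replicate 3 had 0.0391. With the block Vegfa had an adjusted p of 0.0774 in edgeR. Of 14 alternatives, 8 VEGF genes kept their sign in all 14, Vegfd in 12 (-0.12 to 0.053 with 1 library left out) and Flt4 in 13 (-0.082 to 0.022).

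With the longest transcript as length, levels in CPM per kb were 166 for Kdr, 148 for Nrp1, 143 for Flt1, 54.5 for Nrp2, 33.4 for Vegfa, 24.3 for Pgf, 23.1 for Flt4, 14.2 for Vegfb and 3.55 for Vegfd. With 1 library left out, the log2 ratio differences ran from -0.18 to 0.21 for Flt1/Kdr, -0.18 to 0.012 for Nrp1/Kdr and -0.37 to 0.21 for Pgf/Vegfa, and the other 7 kept their sign. Medians ran from -0.11 to 0.10 for the endothelial list, 0.57 to 0.94 for cardiomyocyte genes and -0.14 to 0.21 for dissociation genes, and those of the lymphatic (-0.16 to 0.16), mural (-0.12 to 0.048) and leukocyte (-0.25 to 0.22) lists also turned sign. Log2 fold changes near 0 that turned ran from -0.062 to 0.29 for Sema3g, -0.27 to 0.036 for Tie1, -0.091 to 0.062 for Cdh5, -0.089 to 0.23 for Gsn, -0.0075 to 0.27 for Rgs5, -0.26 to 0.22 for Cd79a, -0.052 to 0.50 for Ptprc, -0.18 to 0.19 for Egr1, -0.13 to 0.21 for Junb and -0.27 to 0.035 for Timp3. With a term for the Xist split, Cdh5 turned to 0.021, Rgs5 to -0.0047, Cd79a to -0.095, Egr1 to 0.056 and Junb to 0.090, and with the replicate block Junb turned to 0.0030. The call of Myh6 had an adjusted p of 0.0890 with the Xist term.

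With 9595701 counts, WT replicate 3 gave Vegfd 62 counts, the fewest of any VEGF gene. The SE was widest for Pgf, at 0.31, and next for Vegfd, at 0.19. No group was large enough for a test of single libraries standing apart.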

Other observations

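The tested genes whose levels followed each VEGF gene most closely over the 6 libraries, by Pearson's r of log2(CPM + 1) among genes with a mean of at least 1 CPM, are given as a description. They were sought among all such genes over 6 points that share genotype, depth and the Xist split, so high values arise in any case. For the ligands they were Stum, Apaf1 and Creb5 for Vegfa (r = 0.993, 0.988 and 0.987), Arl14ep, 2700062C07Rik and Tmod3 for Vegfb (0.993, 0.991 and 0.989), Decr1, Serpinb1a and Zfp597 for Vegfc (0.999, 0.994 and 0.993), Neu1, Abcd4 and Pcbp2 for Vegfd (0.991, 0.989 and 0.984) and Ccnk, Chrd and Tecr for Pgf (0.998, 0.995 and 0.995). For the receptors they were Cxxc4, Magix and H2-T24 for Flt1 (0.998, 0.993 and 0.993), Mrpl16, Ikzf5 and Gm8696 for Kdr (0.996, 0.994 and 0.994) and Riok3, Ncaph2 and Lmtk3 for Flt4 (0.979, 0.971 and 0.969). For the coreceptors they were Dhx15, Polr2m and Cops3 for Nrp1 (0.996, 0.995 and 0.993) and C5ar2, Lxn and Myh9 for Nrp2 (0.993, 0.993 and 0.989). No VEGF gene was among the 3 closest genes of another.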
